A study of Mus musculus with 8 samples.

Results

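NF-kB subunits and feedback genes were followed in spleen RNA of miR-155 knockout and wild-type mice. The group holds 10 genes, taken by name from the array annotation, of 24171 named genes on the array: the subunit genes Nfkb1, Nfkb2, Rel and Relb, the inhibitor and feedback genes Nfkbia, Tnfaip3 and Bcl3, and the target genes Birc3, Traf1 and Bcl2a1a. The knockout group, labelled mir-155 knockout, was made up of Mim1-5 and Mim1-6, labelled female, and Mim2-2 and Mim2-3, labelled male. The wild-type group was made up of WT-1 and WT-3, labelled female, and WT-2 and WT-4, labelled male. Each of the 8 arrays carried Cy3-labelled total RNA of 1 spleen on a 1-colour NimbleGen design, and the labels give neither age, strain nor the way the knockout was made. All values below are log2 intensities of 1 array feature per gene, the brightest by its mean over the 8 arrays, and differences are knockout minus wild type on that log2 scale. They were tested with limma in a fit over all 44170 features, with labelled sex as an additive term and Benjamini-Hochberg adjustment over all features.

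NF-kB is a family of dimeric transcription factors that inhibitor proteins of the IkB family hold in the cytoplasm. Signals from antigen receptors, Toll-like receptors and TNF family receptors lead to IkB breakdown in the canonical pathway, whereas a second, slower pathway processes the Nfkb2 product p100 and releases Relb. In the spleen NF-kB supports B cell survival, the activation of lymphocytes and macrophages, and the stromal cells of the white pulp. Many of its targets, among them Nfkbia and Tnfaip3, encode proteins that switch the pathway off again. The host transcript of miR-155, called BIC, is itself induced through NF-kB in activated lymphocytes and macrophages, and published targets of miR-155 include kinases and adaptors of NF-kB signalling.

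The mature product of the gene that the labels give as knocked out is shown first, since it defines the groups. It is the 5p strand from chromosome 16 as RefSeq lists it on GRCm38.p6, with its seed, bases 2 to 8, in capitals.
mmu-miR-155-5p: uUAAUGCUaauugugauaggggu

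The 250 bases before the transcription start are shown for 4 members, chosen to set windows that hold a kB match (Nfkbia, Nfkb2 and Rel) beside the window of the member with the largest difference (Bcl2a1a). They are RefSeq promoter sequences on GRCm38.p6, read 5′ to 3′ on the gene's strand. Capitals mark each match, on either strand, to the kB consensus, written here as GGG, a purine, any base, A or T, 2 pyrimidines and CC. Overlapping matches run together.
Nfkbia, chr12:55492648-55492897, minus strand: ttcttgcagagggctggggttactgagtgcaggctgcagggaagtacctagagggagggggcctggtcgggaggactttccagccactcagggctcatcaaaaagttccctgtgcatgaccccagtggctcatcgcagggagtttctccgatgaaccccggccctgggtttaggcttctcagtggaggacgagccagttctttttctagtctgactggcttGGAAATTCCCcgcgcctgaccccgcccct
Nfkb2, chr19:46304487-46304736, plus strand: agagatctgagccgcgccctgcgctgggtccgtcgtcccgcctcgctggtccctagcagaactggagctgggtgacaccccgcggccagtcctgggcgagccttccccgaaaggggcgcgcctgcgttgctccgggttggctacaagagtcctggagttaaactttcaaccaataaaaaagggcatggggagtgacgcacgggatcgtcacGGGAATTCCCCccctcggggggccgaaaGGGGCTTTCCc
Rel, chr11:23770970-23771219, minus strand: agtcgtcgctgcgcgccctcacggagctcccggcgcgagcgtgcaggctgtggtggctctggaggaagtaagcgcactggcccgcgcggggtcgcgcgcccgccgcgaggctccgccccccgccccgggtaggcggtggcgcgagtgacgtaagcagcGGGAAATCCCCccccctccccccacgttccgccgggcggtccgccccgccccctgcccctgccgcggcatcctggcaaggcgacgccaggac
Bcl2a1a, chr9:88956670-88956919, plus strand: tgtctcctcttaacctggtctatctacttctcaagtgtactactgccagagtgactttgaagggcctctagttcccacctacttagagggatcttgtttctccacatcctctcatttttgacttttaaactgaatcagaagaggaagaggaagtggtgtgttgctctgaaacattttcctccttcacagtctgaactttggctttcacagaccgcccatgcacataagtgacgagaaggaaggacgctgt

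The RefSeq table held 11 such windows for 8 of the 10 members, with several starts for Nfkb2 and Tnfaip3. Nfkb1 and Relb had no entry. A match was present in 6 of the 11 windows (54.5%), which belong to Nfkbia, Nfkb2, Rel and Tnfaip3, against 3.9% of all 32851 windows of this length. Several of the 6 windows are starts of Nfkb2, and by gene 4 of 8 members had a match. The members were listed as NF-kB subunit, feedback and target genes, so these shares are no test of enrichment. The Nfkbia match begins 29 bases before the start site and the 2 overlapping Rel matches begin 92 and 91 bases before it. The windows of Bcl2a1a, Bcl3, Birc3 and Traf1 held none of these letters. These matches describe the sequence, and binding was not measured.

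The arrays were of similar brightness, with median intensities of 112.1 to 119.1 on the linear scale and random probes at log2 4.94 to 5.24. The knockout could not be checked on the host transcript BIC, whose feature on chromosome 16 from 84713276 to 84715489 (MM9) read 7.51, 5.37, 5.28 and 5.46 in Mim1-5, Mim1-6, Mim2-2 and Mim2-3, and 5.27, 4.84, 4.85 and 5.63 in WT-1 to WT-4. Most of these values lie near the random probes, and the position of its probes against the deletion is not in the labels, so it checks nothing. Mim2-2 and Mim2-3 stood apart from the other arrays, with median correlations of 0.846 and 0.856 to the other 7, against 0.911 to 0.933 for the remaining 6. Labelled sex was not mirrored by sex-linked genes, Xist averaging 9.95 on arrays labelled male and 10.13 on arrays labelled female, and Ddx3y 7.76 and 7.82. Spleen B cell, T cell and macrophage markers were all above the random probes on all 8 arrays, but so were 15 of 21 mammary epithelium markers on all 8 arrays. In bulk spleen RNA, more cells of a type and more RNA per cell cannot be told apart.

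Of the 10 members, 7 had a positive difference and 3 a negative one, with a median of 0.57, against a median of 0.06 over all 24171 genes. None passed in limma after adjustment (0 of 10), and the background was 0% of all genes. At an unadjusted p under 0.05, 2 members were higher in the knockout (Nfkb1 and Bcl2a1a), where the background is 7.7% of genes, and 0 were lower, where it is 6.62%. These counts are by brightest feature. Over all 21 features of the members, 6 were higher and 3 lower at that p, and the share over all array features was not computed. In 3 members (Nfkb1, Nfkbia and Bcl2a1a) all knockout arrays lay above all wild-type arrays, a pattern that 5.27% of genes show, and in 0 members all knockout arrays lay below, as 2.56% of genes do. Whether the group differs from the rest of the array was not tested. Without both Mim2 arrays the median was 0.25 and 0 members were higher at an unadjusted p under 0.05, whereas without Mim1-6 that count was 4. With labelled sex in the fit, the differences without both Mim2 arrays are those of Mim1-5 and Mim1-6 against WT-1 and WT-3. Their SEs are also larger, 0.36 against 0.26 for Nfkb1. Without WT-3 the genotypes of 5 members did not overlap. Leaving out an array can only keep or raise that number, and its background with fewer arrays was not computed.

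**Figure D1:**
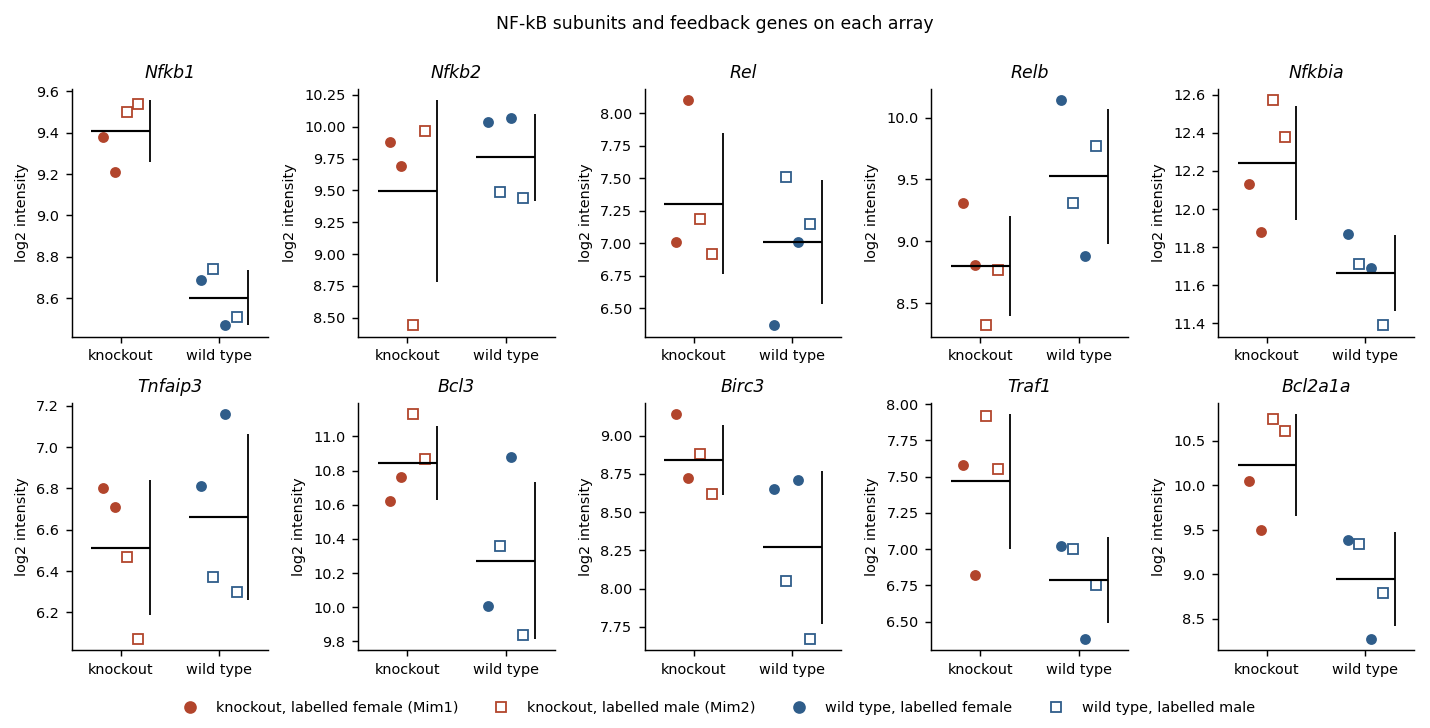
Log2 intensity (vertical axis, a separate scale for each gene) of the 10 genes on each array, with the knockout left of the wild type. Filled circles are arrays labelled female and open squares arrays labelled male, horizontal lines are means and vertical lines 1 SD (n = 4 each). The genotypes do not overlap for Nfkb1, Nfkbia and Bcl2a1a, and overlap for the other 7.

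Among the subunit genes, Nfkb1 was the one whose genotypes separated, while Rel, Nfkb2 and Relb overlapped. Nfkb1 encodes p105, the precursor of the p50 subunit, and its feature lies on chromosome 3 from 135274989 to 135354511 (MM9). It read 9.38, 9.21, 9.50 and 9.54 in the knockouts Mim1-5, Mim1-6, Mim2-2 and Mim2-3, against 8.69, 8.74, 8.47 and 8.51 in WT-1 to WT-4. Every knockout array was above every wild-type array, with 0.47 between the lowest knockout and the highest wild-type value. The means were 9.41 ± 0.15 in the knockout and 8.60 ± 0.13 on wild-type arrays (SD, n = 4 each). The difference of 0.81 ± 0.26 (SE), a 1.75-fold change on the linear scale, did not pass (limma, adjusted p = 0.288).

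Rel encodes c-Rel, the subunit most tied to lymphocyte activation, and its feature lies on chromosome 11 from 23642136 to 23670912. It read 7.01, 8.10, 7.19 and 6.92 in Mim1-5, Mim1-6, Mim2-2 and Mim2-3, and 6.37, 7.51, 7.01 and 7.15 in WT-1 to WT-4. The groups overlapped over most of their range, and Mim1-6 alone lay above all wild-type values. The difference was 0.29 ± 0.38 (SE; limma, adjusted p = 0.762), and it was -0.04 without Mim1-6.

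Nfkb2 encodes p100, the precursor of p52, and lies on chromosome 19 from 46379289 to 46386580. Its feature read 9.88, 9.69, 8.44 and 9.97 in the 4 knockouts in the same order, and 10.04, 9.49, 10.07 and 9.44 in WT-1 to WT-4. Mim2-2 was the lowest array, and the other 3 knockouts lay within the wild-type range. The difference of -0.27 ± 0.36 (SE; limma, adjusted p = 0.767) was 0.04 without Mim2-2.

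Relb encodes the partner of p52 in the second pathway, and its feature lies on chromosome 7 from 20191570 to 20214600. It read 9.31, 8.81, 8.32 and 8.77 in Mim1-5, Mim1-6, Mim2-2 and Mim2-3, against 10.14, 9.31, 8.88 and 9.77 in WT-1 to WT-4. Of the knockout arrays, 3 lay below every wild-type array and Mim1-5 lay inside the wild-type range. Relb had the most negative difference of the 10 members, -0.72 ± 0.36 (SE), which did not pass (limma, adjusted p = 0.410).

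Of the inhibitor and feedback genes, Nfkbia and Bcl3 had nearly the same positive difference and Tnfaip3 a small negative one, and none passed (limma, adjusted p of 0.403, 0.454 and 0.834). Nfkbia encodes IkB-alpha, the inhibitor that NF-kB induces to end its own activity, and lies on chromosome 12 from 56590845 to 56593567. It read 12.13, 11.88, 12.57 and 12.38 in Mim1-5, Mim1-6, Mim2-2 and Mim2-3, against 11.87, 11.71, 11.69 and 11.39 in WT-1 to WT-4. The knockout arrays all lay above the wild-type arrays, but by 0.02 at the closest point, between Mim1-6 and WT-1. The difference was 0.58 ± 0.29 (SE; limma, adjusted p = 0.403).

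Bcl3 encodes an atypical IkB protein that works in the nucleus with p50 and p52 dimers, and its brightest feature lies on chromosome 7 from 20393810 to 20396483. It read 10.62, 10.76, 11.13 and 10.87 in Mim1-5, Mim1-6, Mim2-2 and Mim2-3, and 10.01, 10.36, 10.88 and 9.84 in WT-1 to WT-4. WT-3 alone reached into the knockout range, and the other wild-type arrays lay below it. The means were 10.84 ± 0.22 in the knockout and 10.27 ± 0.46 on wild-type arrays (SD, n = 4 each), a difference of 0.57 ± 0.32 (SE) that did not pass (limma, adjusted p = 0.454). Its sign depends on the feature, since the second feature of Bcl3, described below, had a difference of -2.12.

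Tnfaip3 encodes A20, the ubiquitin-editing enzyme that shuts off NF-kB signalling, and its feature lies on chromosome 10 from 18720721 to 18731769. It read 6.80, 6.71, 6.47 and 6.07 in Mim1-5, Mim1-6, Mim2-2 and Mim2-3, and 6.81, 6.37, 7.16 and 6.30 in WT-1 to WT-4. The genotypes overlapped, and its difference of -0.15 ± 0.27 (SE; limma, adjusted p = 0.834) was the smallest in size of the 10.

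The target genes of cell survival and TNF receptor signalling all had positive differences. Birc3 encodes cIAP2, a ubiquitin ligase of the TNF receptor complex, with a feature on chromosome 9 from 7854366 to 7873127. It read 9.14, 8.72, 8.88 and 8.62 in Mim1-5, Mim1-6, Mim2-2 and Mim2-3, and 8.65, 8.05, 8.71 and 7.67 in WT-1 to WT-4. WT-1 and WT-3, labelled female, came up to the lower knockout values, and WT-2 and WT-4, labelled male, lay below. The difference was 0.57 ± 0.29 (SE; limma, adjusted p = 0.414).

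Traf1 encodes an adaptor that binds TRAF2 and the cIAPs and is a classical NF-kB target, with a feature on chromosome 2 from 34798777 to 34817292. It read 7.58, 6.82, 7.92 and 7.55 in Mim1-5, Mim1-6, Mim2-2 and Mim2-3, against 7.02, 7.0, 6.38 and 6.75 in WT-1 to WT-4. Mim1-6 lay inside the wild-type range and the other 3 knockouts above it. The difference was 0.68 ± 0.31 (SE; limma, adjusted p = 0.376).

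Bcl2a1a, which encodes the BCL2 family survival protein A1, had the largest difference of the members. Its feature on chromosome 9 from 89094120 to 89102663 read 10.05, 9.50, 10.75 and 10.61 in Mim1-5, Mim1-6, Mim2-2 and Mim2-3, against 9.38, 9.34, 8.27 and 8.79 in WT-1 to WT-4. All knockout arrays were above all wild-type arrays, with 0.12 between the nearest values, and the Mim2 arrays were highest. The difference of 1.29 ± 0.35 (SE), 2.44-fold, did not pass (limma, adjusted p = 0.266). A1 genes are near-identical copies, and the array placed a feature named Bcl2a1b at nearly the same position, from 89094133 to 89102663. The other 4 features of this family, named Bcl2a1b, Bcl2a1c and Bcl2a1d, had differences of 1.04 to 1.21 and differed from the Bcl2a1a feature by 0.20 to 0.63 on average over the 8 arrays. Which copy gave the signal is uncertain.

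The 10 members have 21 features in all, 12 with a positive and 9 with a negative difference. For 3 members the features pointed in different directions. Nfkb1 has a second feature, annotated as I kappa B gamma, the C-terminal product of the same gene, on chromosome 3 from 135247618 to 135271410. It read 9.61, 8.77, 8.59 and 8.08 in the knockouts and 9.73, 8.93, 8.76 and 8.58 on wild-type arrays, a difference of -0.24 ± 0.35 (SE). The stated positions of the 2 features do not overlap, so each covers a part of the gene. The brightest feature minus the second was -0.24, 0.44, 0.92 and 1.46 in Mim1-5, Mim1-6, Mim2-2 and Mim2-3, against -1.04, -0.19, -0.30 and -0.07 in WT-1 to WT-4. The 2 features of Nfkb1 thus did not change equally over the arrays.

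For Bcl3 the second feature, from 20394222 to 20408004 on chromosome 7, read 7.46, 8.58, 5.80 and 4.34 in Mim1-5, Mim1-6, Mim2-2 and Mim2-3, against 8.73, 8.20, 9.17 and 8.53 in WT-1 to WT-4. The 2 Mim2 arrays were far below the rest, Mim2-3 lying under its random probes, and Mim1-6 lay inside the wild-type range. Its difference of -2.12 ± 0.56 (SE; limma, adjusted p = 0.266) is opposite in sign to that of the brightest feature. With the mean over each gene's features in place of the brightest one, Bcl3 had a difference of -0.77, Nfkb1 had 0.28 (unadjusted p = 0.300 in limma), and the median of the members was 0.29. At an unadjusted p under 0.05, Birc3, Traf1 and Bcl2a1a were then higher, and Relb and Bcl3 lower.

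The 4 Nfkb2 features had differences of -0.97, -0.27, -0.24 and 0.78, and the feature with -0.97 read 7.06 and 6.97 in the Mim2 arrays against 8.50 to 9.38 in all others. All 3 Relb features were negative, between -0.98 and -0.31, all 3 Birc3 features positive, between 0.57 and 1.12, and all 3 Traf1 features positive, between 0.68 and 1.07. A Traf1 feature from 34803055 to 34817292 read 7.05, 6.71, 7.22 and 7.40 in the knockouts and 6.00, 6.12, 5.91 and 6.10 on wild-type arrays. Its genotypes stood 0.60 apart, wider than for any brightest feature (difference 1.07 ± 0.26 SE; limma, adjusted p = 0.262).

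**Figure D2:**
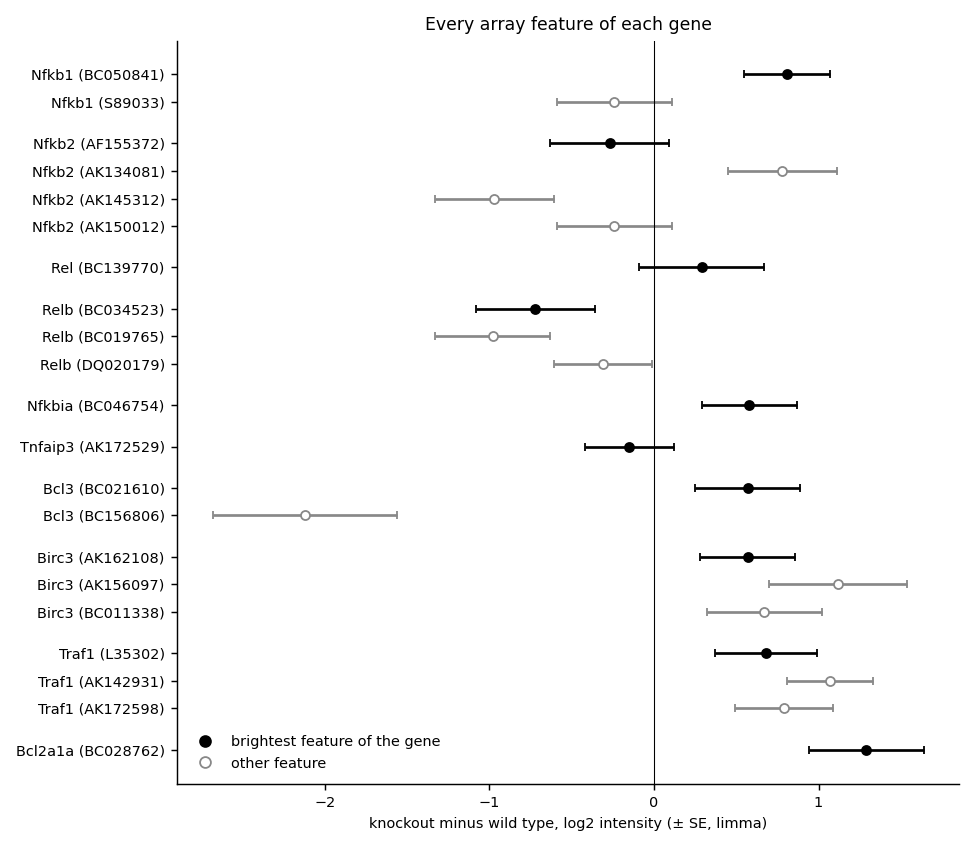
Knockout minus wild type on the log2 scale (horizontal axis, ± SE from limma) for all 21 features of the 10 genes, with the brightest feature of each gene in black and the others in grey. Features of Birc3, Traf1 and Relb share a sign within each gene, and those of Nfkb1, Nfkb2 and Bcl3 do not.

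The knockout difference was more positive, or less negative, on arrays labelled male for 8 of the 10 members. Among these 8, Nfkb2 (-0.26 in labelled males, -0.27 in labelled females) and Tnfaip3 (-0.07 and -0.23) were negative in both. The difference between the labelled sexes passed for 0 of 10 (limma interaction, adjusted p from 0.501 to 0.994). No member was at an unadjusted p under 0.05 for the interaction, where the background is 13.6% of genes, and 0% of genes passed after adjustment. Among knockouts, labelled sex coincides with the Mim1 and Mim2 names and with the arrays that stand apart, so these cannot be told apart. In labelled males (2 against 2) the difference was 1.62 for Bcl2a1a, 0.92 for Nfkbia, 0.90 for Nfkb1, 0.90 for Bcl3, 0.89 for Birc3 and 0.86 for Traf1. In labelled females (2 against 2) it was 0.96, 0.23, 0.71, 0.25, 0.25 and 0.50 for the same genes in the same order. Nfkb1 thus had nearly the same difference in both, whereas Nfkbia, Bcl3 and Birc3 had most of theirs in labelled males. Rel differed in sign, with -0.28 in labelled males and 0.87 in labelled females, a gap of -1.15 ± 0.67 (SE) that did not pass (limma, adjusted p = 0.501).

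**Figure D3:**
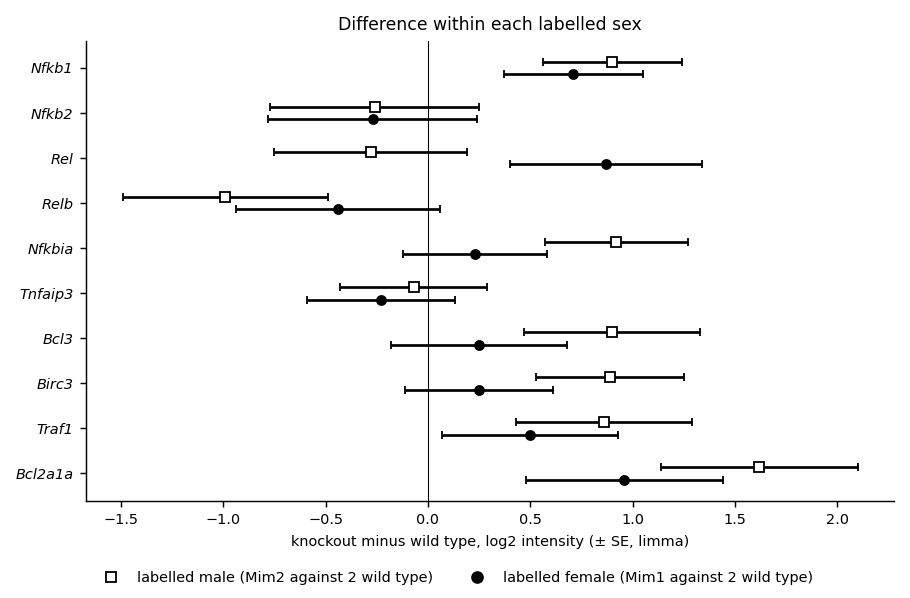
Knockout minus wild type on the log2 scale (horizontal axis, ± SE from limma) for each gene, within arrays labelled male (open squares, 2 against 2) and labelled female (filled circles, 2 against 2). Of the 10 genes, Rel alone has opposite signs, with -0.28 in labelled males and 0.87 in labelled females.

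Of 58 other NF-kB pathway genes in 7 lists, 55 were measured. At an unadjusted p under 0.05, 17 were higher in the knockout (background 7.7% of genes) and 6 were lower (background 6.62%), and 0 passed after adjustment (limma, adjusted p from 0.262 to 0.944). Their median difference was 0.39, against 0.06 over all genes. In 16 of them all knockout arrays lay above all wild-type arrays, as in 5.27% of genes, and in 3 all lay below, as in 2.56% of genes. These same shares are the background for the counts per list.

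All 4 genes of the relay from antigen receptors to NF-kB had an unadjusted p under 0.05 and knockout arrays above all wild-type arrays, with a median of 1.24. Malt1, the paracaspase of that complex, read 10.62, 10.16, 10.93 and 10.88 in Mim1-5, Mim1-6, Mim2-2 and Mim2-3, against 8.95, 9.04, 8.33 and 8.01 in WT-1 to WT-4. Its difference of 2.07 ± 0.34 (SE) was the largest of all 55 genes (limma, adjusted p = 0.262). The kinase gene Prkcb had a difference of 1.44 ± 0.30 (SE). Bcl10, named after its values were seen, had 1.03. B cell markers had means of 9.93 to 10.90 on knockout arrays and 9.01 to 9.45 on wild-type arrays. T cell markers had means of 8.51 to 9.29 and 7.82 to 8.30 in the same order. The part of these cells in the differences of the relay genes was not tested.

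The remaining subunit and IkB genes were divided. The atypical IkB gene Nfkbid had a difference of 1.05 ± 0.31 (SE), with means of 10.80 in the knockout and 9.75 on wild-type arrays, and Nfkbie, which encodes IkB-epsilon, had 1.17. Rela, which encodes the main activating subunit p65, had -0.80 ± 0.28 (SE), with means of 9.21 in the knockout and 10.01 on wild-type arrays. Its lowest arrays were Mim2-2 and Mim2-3 at 8.44 and 8.93, while Mim1-5 and Mim1-6 read 9.84 and 9.61, near the wild-type range of 9.73 to 10.35. Nfkbiz, an inducible nuclear IkB gene named after its values were seen, had -1.03. None of the 5 passed after adjustment (limma, adjusted p from 0.273 to 0.933).

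In the list of the IKK complex and its upstream adaptors and kinases, 4 of 15 were higher at an unadjusted p under 0.05 and 0 lower, with a median of 0.25. The adaptor gene Traf5 had a difference of 1.06, the catalytic IKK subunit gene Ikbkb 0.96, and the IKK-related kinase gene Tbk1 0.76. Traf3, named after its values were seen, had 0.77. Among ligands, 1 of 6 was higher, Ltb, which encodes lymphotoxin beta, with 0.79, while Lta had 0.85 and Tnf 0.84 without reaching that p. Of 5 receptors, 1 was higher and 2 were lower. The BAFF receptor gene Tnfrsf13c, needed for B cell survival, had 1.36, whereas the RANK gene Tnfrsf11a had -1.31 and the TNF receptor gene Tnfrsf1a -1.16. Tnfrsf1a was low on Mim2-2 and Mim2-3, at 8.89 and 8.61, while Mim1-5 and Mim1-6 read 10.73 and 11.10, within the wild-type range of 10.72 to 11.40.

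Among other brakes on the pathway, 1 of 8 was higher and 1 lower. Otud7b, which encodes the deubiquitinase Cezanne, read 8.68, 8.43, 8.37 and 8.86 in Mim1-5, Mim1-6, Mim2-2 and Mim2-3, against 10.34, 9.79, 9.87 and 9.66 in WT-1 to WT-4. All knockout arrays lay below all wild-type arrays, with a difference of -1.33 ± 0.29 (SE; limma, adjusted p = 0.262). Birc2, which encodes cIAP1, had 0.68, and Rnf11, an adaptor of the A20 complex, had -0.64. Of 12 other target genes, 4 were higher and 1 lower, with a median of -0.05. Vcam1, Cd83 and Ebi3 had differences of 1.27, 1.19 and 1.07, with knockout arrays above all wild-type arrays in each. Icam1 and Ier3, named after their values were seen, had 0.77 and -1.80, and Ier3 was low on Mim2-2 and Mim2-3, at 7.05 and 7.97, against 10.42 to 11.53 on the other arrays.

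**Figure D4:**
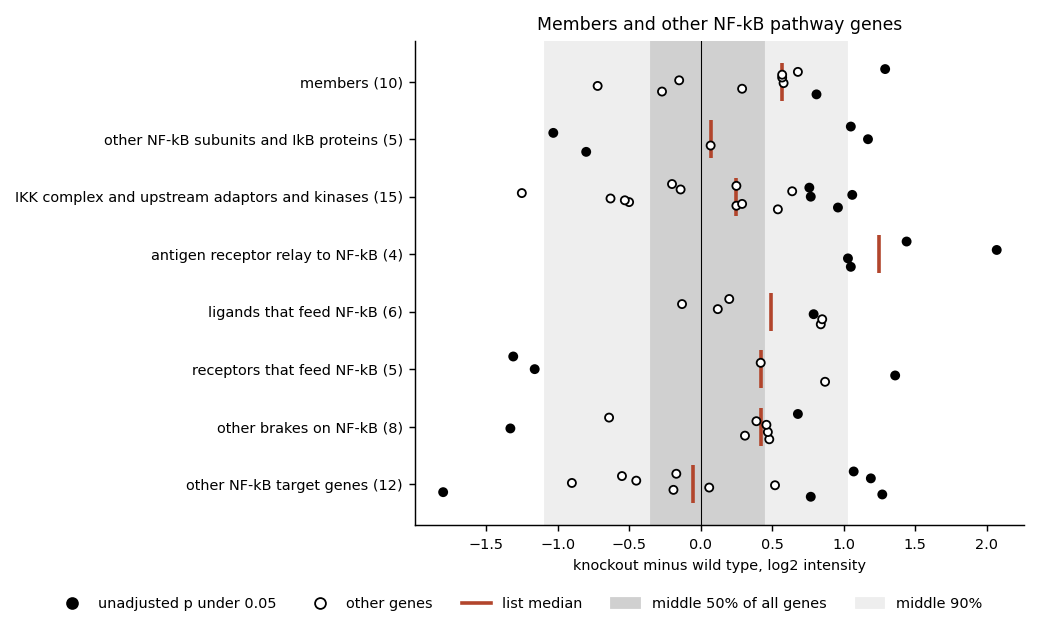
Knockout minus wild type on the log2 scale (horizontal axis) for the 10 genes, shown as members, and for 7 lists of other NF-kB pathway genes, with the number measured in brackets. Points are genes (filled at an unadjusted p under 0.05), red bars list medians, and the bands hold the middle 50% (-0.35 to 0.44) and the middle 90% (-1.09 to 1.02) of all genes. The 4 antigen receptor relay genes lie beyond the wide band, while the target genes spread to both sides.

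Of the 8 lists of cell type markers, 0 had a marker that passed after adjustment (limma, adjusted p from 0.224 to 0.990). The counts for all marker lists are at an unadjusted p under 0.05, where the background is 7.7% of genes higher and 6.62% lower. The B cell, T cell, mammary and pancreas list means did not overlap between genotypes, whereas the other 4 did. Of 19 B cell markers, 15 were higher at an unadjusted p under 0.05 and 0 lower. By sign, 17 differences were positive and 2 negative, and the 2 genes named next have the smallest p. Blk, a kinase of the B cell receptor, averaged 10.28 in the knockout and 8.32 on wild-type arrays, and Cr2, a complement receptor gene, 10.03 and 7.37 in the same order. The mean of 15 T cell markers was 8.51 to 9.29 on knockout arrays and 7.82 to 8.30 on wild-type arrays, with 8 higher and 0 lower. The B and T cell lists were highest on the 2 Mim2 arrays, as were Nfkb1, Nfkbia and Bcl2a1a, whereas the other members were not.

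Red pulp and marginal zone macrophage markers had means of 9.74 to 10.54 on knockout and 9.50 to 9.90 on wild-type arrays, with 4 of 14 higher and 0 lower. These 4 include Vcam1, which is also on the target list. Dendritic cell markers had means of 7.47 to 7.90 on knockout and 7.11 to 7.58 on wild-type arrays, with 3 of 6 positive and 3 negative. At an unadjusted p under 0.05, 2 of these 6 were higher, Siglech (1.31) and Cd83 (1.19), the second of which is also on the target list. Neutrophil markers had means of 7.67 to 8.73 on knockout and 8.54 to 8.77 on wild-type arrays, with 4 of 10 lower. Erythroid markers had means of 9.93 to 11.04 on knockout and 10.84 to 11.11 on wild-type arrays, with 3 of 10 lower.

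Lists of tissues foreign to the spleen differed by more than the spleen lists. The mean of 21 mammary epithelium markers was 7.53 to 9.87 on knockout arrays, lowest in Mim2-2 and Mim2-3, and 10.44 to 10.85 on wild-type arrays, with 16 lower and 1 higher at an unadjusted p under 0.05. The separation holds for the list mean more than for single markers. All knockout arrays lay below all wild-type arrays in 3 of the 21, Csn1s1 among them (background 2.56% of genes). In 1 marker all lay above (background 5.27%). The mean of 9 exocrine pancreas markers was 7.10 to 8.21 on knockout arrays and 5.66 to 5.75 on wild-type arrays, with 9 higher. Of these 9 markers, 5 were above the random probes on all 8 arrays. The milk protein gene Csn1s1 averaged 8.23 in the knockout and 11.86 on wild-type arrays, and the amylase gene Amy2b 11.47 and 7.45 in the same order. The part of these cell types in the differences of the NF-kB genes was not tested.

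**Figure D5:**
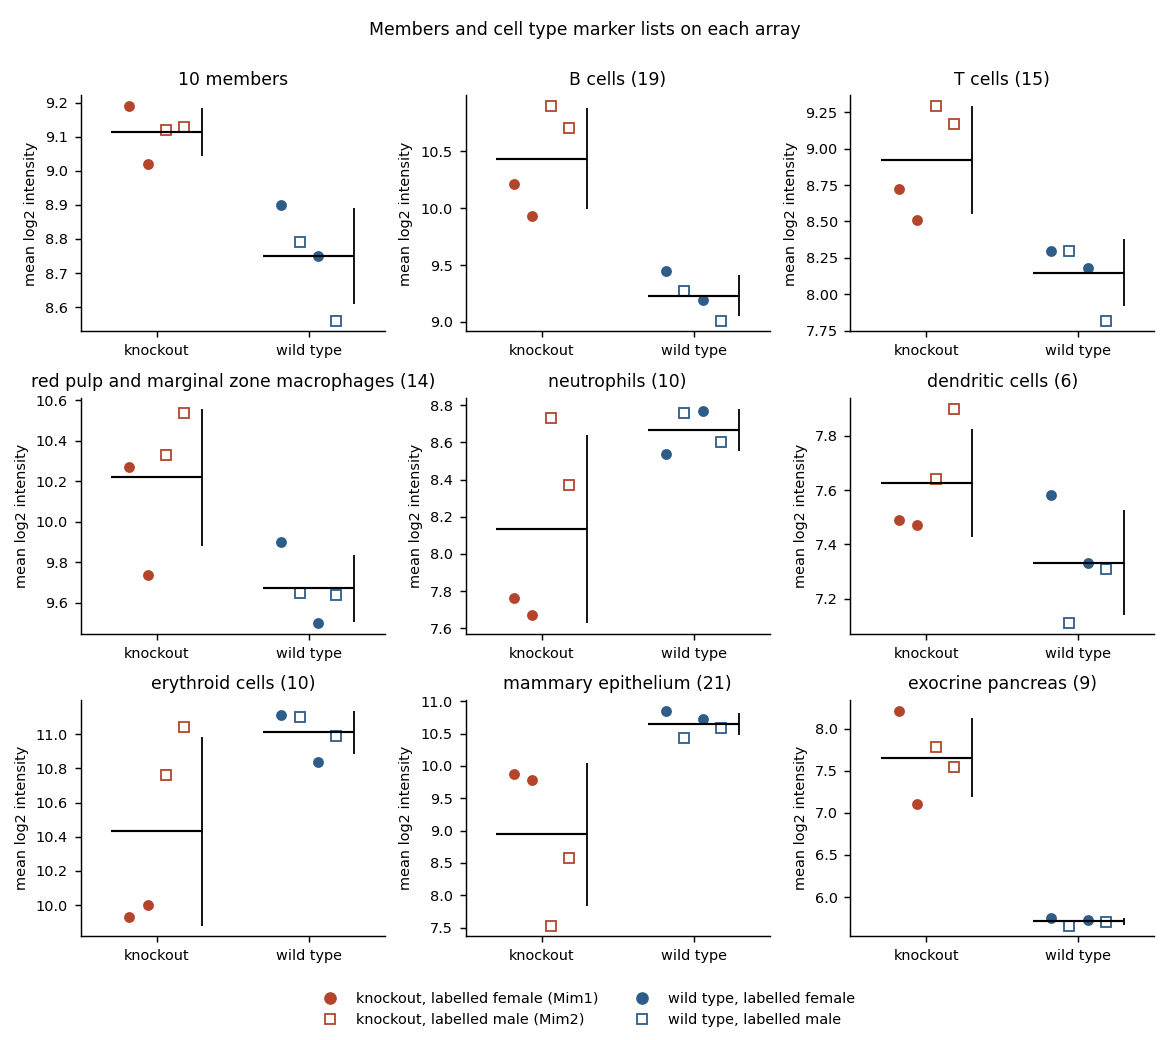
Mean log2 intensity (vertical axis, a separate scale for each panel) of the 10 genes, shown as members, and of 8 marker lists on each array, with the knockout left of the wild type and the number of measured genes in brackets. Filled circles are arrays labelled female, open squares arrays labelled male, horizontal lines means and vertical lines 1 SD (n = 4 each). The means of the B cell, T cell and pancreas lists lie higher and that of the mammary list lower on all knockout arrays. By single marker, 3 of 21 mammary markers lie lower on all knockout arrays. The Mim2 arrays are at the extreme of the B cell, T cell and mammary lists.

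How alike the members were over the 8 arrays was described by the root mean square distance between their log2 values, each gene centred on its own mean. Nfkb1 and Nfkbia were the closest pair, 0.18 apart, and Nfkbia was also the nearest member to Bcl3 (0.29), Birc3 (0.32) and Traf1 (0.24). The nearest member to Bcl2a1a was Traf1 at 0.37. Relb, Rel, Nfkb2 and Tnfaip3 had no near member, at 0.55 from Nfkb2, 0.53 from Bcl3, 0.49 from Tnfaip3 and 0.40 from Birc3, which is about as much as or more than their own spread over the arrays of 0.55, 0.47, 0.50 and 0.33. Among 15827 genes above the random probes on all 8 arrays, the nearest to Nfkb1 was the chromatin organiser gene Satb1 at 0.10, with a difference of 0.78. The nearest to Bcl2a1a was the phospholipase gene Pla2g2d at 0.13, with a difference of 1.36. The nearest to Bcl3 was the methyltransferase gene Setd6 at 0.08, and the nearest to Relb was Ankrd46 at 0.18. Those nearest to the other members were Spty2d1 for Nfkb2 (0.18), Il17rb for Rel (0.20), Gm6378 for Nfkbia (0.07), Ctnna1 for Tnfaip3 (0.11), Slc30a5 for Birc3 (0.15) and Gm3175 for Traf1 (0.10). All these distances are taken over the same 8 arrays and describe them only.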

How the data were processed

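For every array the authors deposited a file of intensity values per feature, linear in scale. The submitters' processing notes name RMA without a version, which corrects background, normalizes arrays to each other and summarises probes. Per the file headers, 44155 of 44170 features have 3 probes, with positions on MM9. A score column that the authors deposited as a standard error was not used. The authors' series table repeats 21856 of the features, equal within a relative tolerance of 1e-05, and leaves out that of Tnfaip3.

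Values were taken to log2 and not normalized again. The level of 5000 random probes was the background and entered no test. Symbols are those of RefSeq (GRCm38.p6) by Entrez number, else those of the file. Models were fitted in R 4.3.3 by limma 3.58.1 (lmFit, eBayes; two-sided) on genotype plus labelled sex, and then with their interaction, after the fit had been tested on simulated data. A call is an adjusted p under 0.05. Background shares are over 24171 genes, each by its brightest feature. Alternatives covered normalization, dim features, variance model, array weights, covariate, features per gene, source of values and arrays left out.

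The members and all lists were chosen with earlier results of these data known. Named are all 10 members, up to 3 genes per pathway list and 2 per marker list by smallest p, the nearest genes, and those said to be named later. The values of 1 pathway gene that this rule names are not reported here. The design text speaks of separate spleens, and each array counts as 1 animal. The files used here name no slide or scan, so no such block was fitted, and the number of arrays limits the precision.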

Additional observations from a re-analysis of the deposited data

How the results depend on the processing

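Under 18 alternatives, 0 of 179 values of a member passed an adjusted p of 0.05 in limma, the smallest being 0.123. The direction held in all of them for 7 members and turned in 1 alternative each for Bcl3 (-0.77 with the mean over a gene's features), Rel (-0.04 without Mim1-6) and Nfkb2 (0.04 without Mim2-2). The filter on dim features, trend and robust variance, the floor, genotype alone and the series table repeated the same differences. The direction could not turn in those alternatives. With 1 array left out, Rel ran from -0.04 to 0.48 and Nfkb2 from -0.57 to 0.04. The median of 0.57 was 0.29 with the mean over features, 0.25 without both Mim2 arrays and 0.42 to 0.65 with 1 array left out. With labelled sex in the fit, the differences without both Mim2 arrays are those within labelled females. Members higher at an unadjusted p under 0.05 numbered 2, but 5 with a floor at the level of the random probes, 4 with the series table (9 members), 3 with trend and robust variance, 3 with the mean over features (Birc3, Traf1 and Bcl2a1a, with Nfkb1 at 0.28), 0 without both Mim2 arrays and 2 to 4 with 1 array left out (4 without Mim1-6). Members lower at that p numbered 0, but 2 with the mean over features and 0 to 1 with 1 array left out (1 without WT-3). Members whose genotypes do not overlap numbered 3, and 3 to 5 with 1 array left out (5 without WT-3). Leaving out an array can only keep or raise that number, and the share of all genes with fewer arrays was not computed. The cause of the shifts in these counts was not tested. For the interaction, 0 of 20 values changed sign, but another variance model or array weights left every estimate as it was. These alternatives therefore tell nothing about its direction. No paired analysis was possible because the animals of the groups share no replicate numbers.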
